A study of Mus musculus with 20 samples.

Results

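The cell proliferation genes examined here are 40 genes of S phase and mitosis, most of which p53 is known to repress through its target p21, in the thoracic aorta of irradiated mice. They were chosen by gene symbol from a fixed list, and all 40 were found among the 21078 genes of the sense-strand count table. Averaged over the 20 mice, 32 of them had 5 counts or more, and these 32 were tested for a dose response together with every other gene at that level, 13124 genes in all. The mice were wild type adult C57BL/6 males, 10 to 12 weeks old. In 10 mice the whole body was exposed to protons and in the other 10 to gamma rays, with 1 mouse at each dose. The doses were 0 (sham), 5, 10 and 25 cGy, then steps of 25 cGy from 50 to 150 cGy, and 200 cGy, and aortas were taken 4 h later. The gamma rays came from 137Cs, and the sham mice were held in the same restraint with no exposure. No dose was replicated within a radiation type, so a dose response was read as a slope across 10 mice, and the deviation of a single mouse cannot be told apart from an effect of its dose.

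DNA damage stabilizes p53, which switches on Cdkn1a, the gene of the cyclin-dependent kinase inhibitor p21. With the kinases inhibited, the RB family stays unphosphorylated, and the repressor complexes DREAM and RB-E2F sit on the promoters of genes for DNA replication and cell division. E2F sites are typical of replication genes and CHR elements of mitosis genes. Most cells of the adult aorta rest outside the cell cycle, and in such cells many of these genes are already at a low level.

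The promoters of 4 members are shown for the sequence elements through which these repressors are known to bind. They are the 250 bases before the start site, from the RefSeq promoter table on GRCm38.p6, written 5′ to 3′ on the strand of the gene. Capitals mark every match to a CHR element (TTTGAA and TTCGAA and TTTAAA), to an E2F motif (TTTCCCGC and TTTGGCGC and TTTCGCGC and TTTGCCGC) or to the CCAAT box, on either strand, so that a reversed CCAAT box reads ATTGG. Cdk1 is shown for the mitotic cyclins and kinases, Top2a for the spindle and chromosome genes and Mcm6 for the replication genes, and Rrm1 is the member whose dose slope passed the test after gamma irradiation.
Cdk1 (chr10:69352913-69353162, minus strand): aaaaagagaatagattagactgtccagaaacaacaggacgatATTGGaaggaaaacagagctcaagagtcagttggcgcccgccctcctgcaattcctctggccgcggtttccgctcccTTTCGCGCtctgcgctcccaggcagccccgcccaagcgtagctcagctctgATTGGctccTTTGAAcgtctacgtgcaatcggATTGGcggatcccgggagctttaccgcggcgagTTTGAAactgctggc
Top2a (chr11:99024190-99024439, minus strand): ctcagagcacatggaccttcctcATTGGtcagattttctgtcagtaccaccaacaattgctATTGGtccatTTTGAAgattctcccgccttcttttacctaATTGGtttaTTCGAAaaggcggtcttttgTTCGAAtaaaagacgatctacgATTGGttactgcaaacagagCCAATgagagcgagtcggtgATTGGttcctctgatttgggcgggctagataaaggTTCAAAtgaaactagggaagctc
Mcm6 (chr1:128359706-128359955, minus strand): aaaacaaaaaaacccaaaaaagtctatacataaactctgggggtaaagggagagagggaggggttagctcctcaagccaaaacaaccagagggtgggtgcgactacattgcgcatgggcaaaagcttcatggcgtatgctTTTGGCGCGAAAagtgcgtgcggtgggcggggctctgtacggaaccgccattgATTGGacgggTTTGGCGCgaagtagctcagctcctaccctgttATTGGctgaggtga
Rrm1 (chr7:102441445-102441694, plus strand): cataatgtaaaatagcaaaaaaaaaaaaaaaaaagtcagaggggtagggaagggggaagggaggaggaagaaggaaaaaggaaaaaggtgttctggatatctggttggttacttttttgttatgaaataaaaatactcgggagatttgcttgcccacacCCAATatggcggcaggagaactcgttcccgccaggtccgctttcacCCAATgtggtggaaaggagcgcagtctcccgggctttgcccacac

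Cdk1 held TTTGAA at 71 and 15 bases before the start site, and 1 E2F motif at 131 bases. Top2a held 4 matches to CHR elements, 2 of them TTCGAA. Mcm6 held 3 E2F matches, 2 of which overlap within a single run, and the Rrm1 window held CCAAT boxes alone. Of the 40 members, 32 had a promoter in the table, and motifs were counted over 250 bases before and 50 bases after the start site. The mitosis genes are here the 15 members that are mitotic kinase and checkpoint genes or spindle and chromosome genes. Cdk1 and the cyclins form a group of their own with Cdk2 and E2f1 and are not counted among them. A CHR element was found in 11 of 12 mitosis genes and in 21 of the 32 members, against 31.86% of all 27025 promoters. An E2F motif was found in 8 of the 32 members, among them 6 of 8 replication licensing genes, 0 of 5 DNA synthesis genes and 0 of 12 mitosis genes, against 2.605% of all promoters. The remaining matches were in Cdk1 and Cdk2. CCAAT boxes were present in 24 of the 32 members, or 75%, against 41.06% of all promoters. These matches describe the letters of a window and are not evidence of binding.

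The tissue label was checked against smooth muscle markers, and all 6 (Myh11, Acta2, Tagln, Cnn1, Smtn and Lmod1) were abundant, with summed counts of 165116 to 332585 per mouse. Library totals lay between 6051657 and 6058006, since the authors had resampled reads to a common depth. The makeup of the dissected tissue varied between mice. The proton mouse at 75 cGy held 12458 counts of muscle markers that include Myh6 and Nppa of the heart, against 109 to 322 in the other 19 mice, and the lowest sum of smooth muscle markers. The gamma mouse at 100 cGy had 5824 counts of brown fat markers, against at most 1551 in the other gamma mice, and the highest erythroid sum, 11410. Proton mice had 947 to 14878 counts of brown fat markers, with a median of 2336. Summed over each list, T cell markers gave 1 to 17 counts, B cell markers 0 to 62, neutrophil markers 0 to 70, macrophage markers 453 to 2901 and endothelial markers 2232 to 7793. Libraries also differed in base composition. Across the 9702 genes with a mean count of 50 or more, the correlation between a gene's deviation from its own mean and the GC content of its transcript was -0.40 to -0.35 at 150 and 200 cGy (4 mice) and -0.02 to 0.28 at the lower doses (16 mice). Which part of any slope belongs to dose and which to this shift cannot be told apart at those doses.

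The members spanned a wide range of levels, led by genes of the G1 phase. Per kilobase of transcript, the D-type cyclins Ccnd3 and Ccnd2 had 302.6 and 231 counts. They were followed by Pcna, the sliding clamp of DNA polymerase, with 193 counts per kilobase, and Mcm6, a subunit of the replicative helicase, with 116. Cdk2 had 48.0 counts per kilobase, Rrm1 45.4, Mcm4 36.3, and Ccnd1 and Mcm7 33.7 each. The mitosis genes were at the low end. Top2a, the topoisomerase that untangles replicated chromosomes, had 2.26 counts per kilobase, Mki67, the gene of the proliferation marker Ki-67, had 1.23, and the kinetochore gene Cenpf had 0.33. Ccnd1, Ccnd2 and Ccnd3 made up 55.0% of all counts of the members, whereas the 15 mitosis genes together made up 3.39%.

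**Figure D1:**
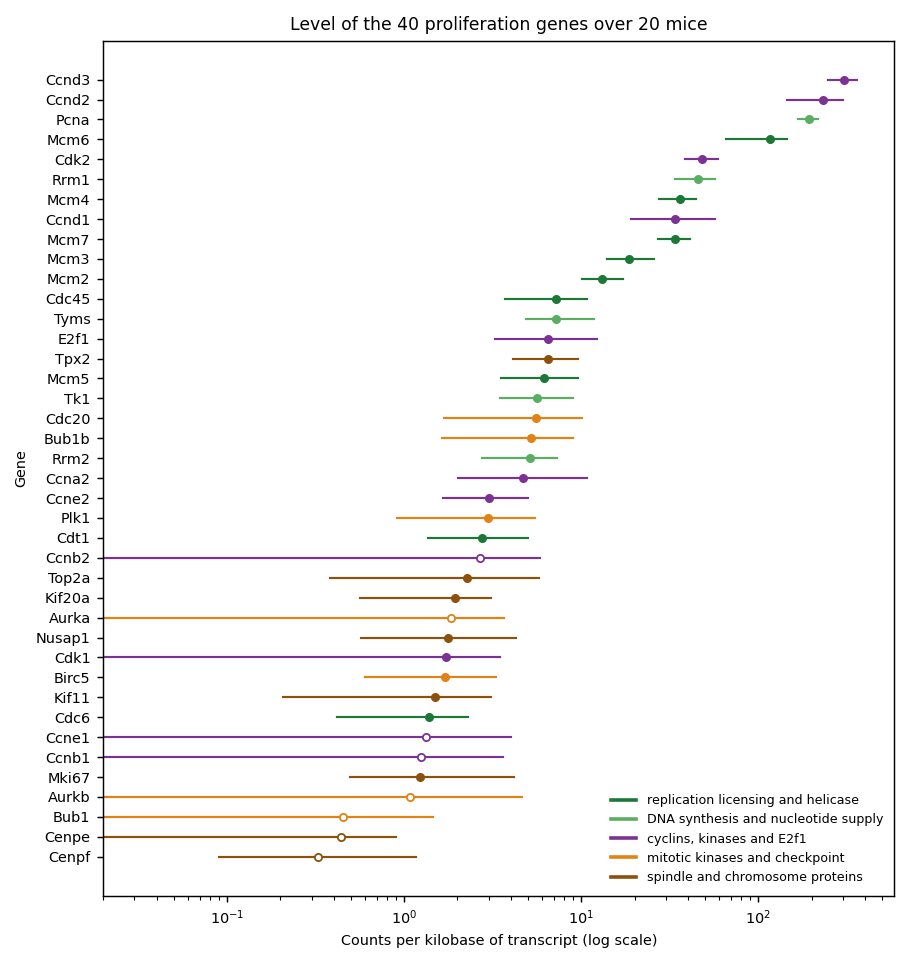
Mean count per kilobase of transcript of each member over 20 mice on a log axis, with lines from the lowest to the highest mouse and open points for the 8 members under a mean count of 5. Lines that reach the left edge belong to genes with 0 counts in at least 1 mouse, and the D-type cyclins Ccnd3 and Ccnd2 lead with 302.6 and 231 counts per kilobase.

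The 8 members below the limit for testing were the mitotic cyclins Ccnb1 (mean count 3.10) and Ccnb2 (4.15), the G1/S cyclin Ccne1 (2.65), the mitotic kinases Aurka (3.50), Aurkb (2.1) and Bub1 (1.55), and the kinetochore genes Cenpe (3.45) and Cenpf (3.65). Ccnb2 lay just outside the limit, and Cdk1 with a mean count of 5.00 and Birc5 with 5.70 lay just inside it. Ccnb1, the partner of Cdk1 at entry into mitosis, had a lowest, median and highest count of 0, 2.5 and 8 in proton mice and of 0, 2 and 9 in gamma mice. No slope is given for these 8 genes, because a change of a few counts is not detectable at this depth. For many members the spread between mice was close to counting error. The variance over the mean, which is near 1 for counting error alone, was below 2 for 26 of the 40 members. The largest ratios belonged to Ccnd2 (32.6), Mcm6 (12.9), Ccnd1 (12.8), Mki67 (6.29) and Ccnd3 (5.96).

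The inhibitor upstream of the members responded to both types of radiation. Cdkn1a had 345, 563, 546, 1027, 1039, 1380, 1639, 1809, 2977 and 2777 counts in the proton mice from the lowest dose to the highest. In the gamma mice it had 366, 262, 517, 845, 1035, 1853, 2164, 2373, 2188 and 2937 counts. Every mouse given 25 cGy or more exceeded every mouse given less, in both types. The edgeR slope of the log2 count per 100 cGy was 1.39 after proton irradiation (SE 0.22, adjusted p 0.00518) and 1.59 after gamma irradiation (SE 0.24, adjusted p 0.00214). The difference of these slopes was -0.20 (95% interval -0.92 to 0.51).

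The question for the members was whether their counts went down along the doses at which p21 went up. At an adjusted p of 0.1, the edgeR quasi-likelihood test called 0 of 32 members in either direction after proton irradiation, where 1.6% of all tested genes rose and 0.16% fell. At an unadjusted p under 0.05 it called 2 (6.25%, against 13.3% of all tested genes), Rrm1 upward and Rrm2 downward, and DESeq2 called 0 at the adjusted threshold, against 1.95% of all genes higher and 0.411% lower. After gamma irradiation 1 member rose, Rrm1, and 0 fell, against 5.44% of all tested genes that rose and 2.21% that fell. The unadjusted test called 4 members after gamma irradiation (12.5%, against 18.4% of all tested genes), of which Rrm1, Mki67 and Top2a had positive slopes and Ccnd3 a negative slope. DESeq2 called 2, with Rrm1 higher and Ccnd3 lower, where 5.39% of all genes were higher and 3.71% lower. The median slope of the members was -0.05 per 100 cGy after proton and 0.03 after gamma irradiation, and over all tested genes 0.00 and 0.01. In both types the median SE was 0.22 for the members and 0.11 for all tested genes. The shares of genes called therefore compare slopes of unequal precision.

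The intervals show how large a fall the data would still allow. The 95% interval of the slope, not adjusted for the number of genes, lay above -1 per 100 cGy for 29 of 32 members after proton irradiation and for 32 of 32 after gamma irradiation. It lay above -0.5 for 15 and 22 members, and above -0.2 for 7 and 10. The narrowest intervals belonged to the abundant genes Ccnd3 and Pcna, with SEs of 0.06 in both types. Abundance alone did not make an interval narrow, since Ccnd1 with a mean count of 126 had SEs of 0.22 and 0.21. The slopes of the mitosis genes had a median SE of 0.33 in both types.

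**Figure D2:**
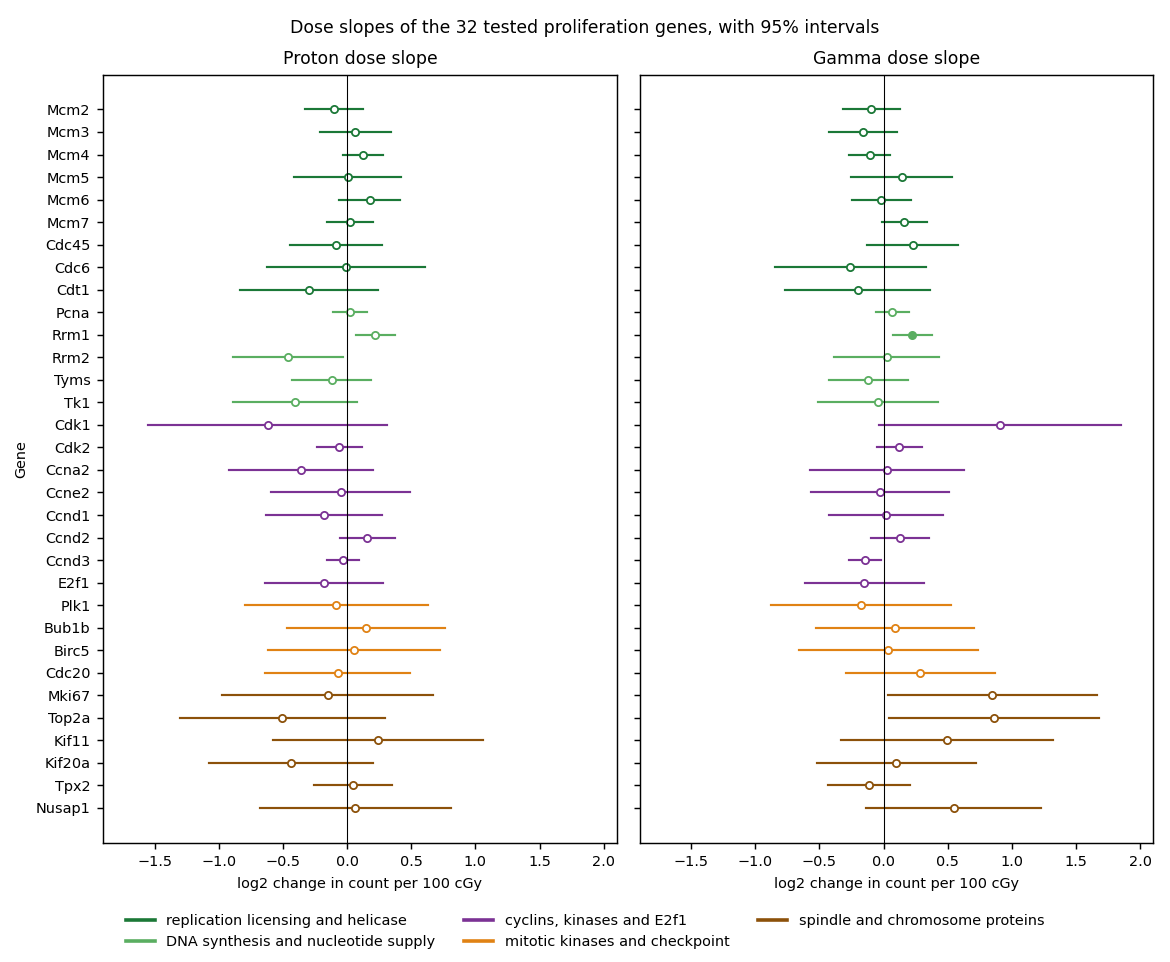
edgeR slope of the log2 count per 100 cGy for the 32 tested members after proton (left) and gamma (right) irradiation, 10 mice each, with 95% intervals that are not adjusted for the number of genes. Colours give the role of the gene, a filled point marks an adjusted p of at most 0.1, and Rrm1 after gamma irradiation is the filled point.

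Genes for licensing and the replicative helicase, which load and open DNA at origins, had slopes of -0.29 to 0.18 after proton irradiation and of -0.26 to 0.23 after gamma irradiation, and 0 of 9 passed in either type by edgeR or DESeq2. Mcm6 ranged from 287 counts in the proton mouse at 75 cGy through a median of 511.5 to 617, and in gamma mice from 423 through 505.5 to 628. The low proton value came from the library with heart muscle markers. The Mcm6 slope was 0.18 after proton (SE 0.11, adjusted p 0.564) and -0.02 after gamma irradiation (SE 0.11, adjusted p 0.969).

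Mcm4, another helicase subunit, had the lowest, median and highest counts 122, 134.5 and 159 in proton mice and 99, 119.5 and 155 in gamma mice. Its proton slope was 0.12 (SE 0.08, adjusted p 0.527) and its gamma slope -0.11 (SE 0.08, adjusted p 0.517). The difference between them, 0.23 (95% interval 0.01 to 0.46), did not pass (unadjusted p 0.0434, adjusted p close to 1 by edgeR). Mcm7 had slopes of 0.03 and 0.16, Mcm3 of 0.06 and -0.16 and Mcm2 of -0.10 in both types, with the proton value given before the gamma value. Mcm5 and Cdc45, which completes the active helicase, had gamma slopes of 0.14 and 0.23. Cdc6 and Cdt1, which load the helicase onto origins and averaged 6.60 and 6.00 counts, had gamma slopes of -0.26 and -0.20 with SEs of 0.28 and 0.27.

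Among the genes of DNA synthesis and nucleotide supply, Rrm1 rose with gamma dose. Rrm1 (chr7:109590209-109618285 on mm9, plus strand) encodes the large subunit of ribonucleotide reductase, which makes deoxynucleotides. In gamma mice it had 178, 135, 139, 178, 161, 196, 192, 189, 197 and 209 counts from 0 to 200 cGy. The sham gamma mouse had as many counts as the mouse at 25 cGy, and all mice from 75 cGy upward were above all mice from 0 to 50 cGy. The slope was 0.22 per 100 cGy (SE 0.07, edgeR adjusted p 0.0971).

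In proton mice Rrm1 had 176, 139, 167, 184, 203, 197, 152, 192, 228 and 218 counts in the order of dose. The highest counts were at 150 and 200 cGy, and the mouse at 100 cGy lay below the sham mouse. The proton slope was 0.22 (SE 0.07), with an adjusted p of 0.178, and the difference of the slopes was close to 0 (95% interval -0.22 to 0.21). The Rrm1 transcript has 44.4% GC, against a median of 50.4% over the tested genes, and when libraries were corrected for GC content and transcript length, the slopes were 0.17 in both types with adjusted p-values of 0.250 (gamma) and 0.451 (proton). Without the 4 mice at 150 and 200 cGy the gamma slope was 0.25 (SE 0.13, adjusted p 0.870). Leaving out both mice of 1 dose ended the gamma call for 7 of the 10 doses (all but 0, 75 and 100 cGy), with slopes of 0.18 to 0.24 and adjusted p-values of 0.111 to 0.391.

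Rrm2, the small subunit of the same enzyme and the one made mainly in S phase, had 12, 15, 13, 15, 16, 9, 8, 6, 11 and 8 counts in proton mice. All 5 proton mice from 0 to 50 cGy were above all 5 from 75 to 200 cGy. Its proton slope was -0.46 (SE 0.20, unadjusted p 0.0361, adjusted p 0.332), and its gamma slope was 0.02 (SE 0.20). The difference of the slopes was -0.48 (95% interval -1.07 to 0.11).

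Tk1, thymidine kinase of the salvage pathway, ranged from 5 to 11 counts in proton mice and from 5 to 13 in gamma mice, with a median of 7.5 in each. Its slopes were -0.41 (SE 0.23, adjusted p 0.522) after proton and -0.04 (SE 0.22) after gamma irradiation. Tyms, thymidylate synthase, had a slope of -0.12 (SE 0.15) in both. Pcna, which is itself known as a p53 target as well as a replication gene, varied little between mice. Its lowest, median and highest counts were 253, 284 and 331 in proton mice and 264, 294.5 and 330 in gamma mice. The slopes were 0.02 (95% interval -0.11 to 0.15) and 0.07 (-0.06 to 0.20), with adjusted p-values of 0.943 and 0.652.

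The D-type cyclins, which drive the passage through G1 together with Cdk4 and Cdk6, had slopes of both signs, none of which passed by edgeR. Ccnd3 (chr17:47642000-47736632 on mm9, plus strand) had 759, 714, 665, 693, 655, 698, 659, 608, 603 and 604 counts in gamma mice. The sham mouse was the highest and the mice at 125 to 200 cGy were the lowest 3. The gamma slope was -0.15 (SE 0.06, unadjusted p 0.0215, adjusted p 0.170), and DESeq2 gave -0.16 with an adjusted p of 0.0987. In proton mice Ccnd3 ranged from 524 through a median of 582.5 to 689, and its slope was -0.03 (SE 0.06). The Ccnd3 transcript has 58.4% GC, and with the correction for GC content and length the gamma slope was -0.01 (SE 0.06, adjusted p 0.965). Leaving out the proton mouse at 75 cGy gave a Ccnd3 gamma slope of -0.16 with an adjusted p of 0.0754.

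Ccnd1 varied widely but without a slope that passed, from 78 through 121 to 214 counts in proton mice and from 71 through 111 to 188 in gamma mice. The highest proton value was at 75 cGy and the highest gamma values were at 25 cGy (188) and 100 cGy (187). Erythroid markers summed to 7733, 9118 and 11410 in these 3 mice, and macrophage markers to 2739, 2351 and 2901. The proton mouse at 125 cGy had the highest macrophage sum of its type, 2804, with 113 counts of Ccnd1. The sham gamma mouse had a macrophage sum of 2701 with 158 counts of Ccnd1. The part of these cells in the Ccnd1 counts was not tested. The Ccnd1 slopes were -0.18 (SE 0.22, edgeR adjusted p 0.822) and 0.02 (SE 0.21, edgeR adjusted p 0.984). Ccnd2, the most counted member with a mean of 1318, was highest at 150 and 200 cGy in both types, with 1626 and 1717 counts in proton mice and 1702 and 1495 in gamma mice. The other 16 mice had 830 to 1393 counts. The Ccnd2 slopes, 0.16 (SE 0.10, adjusted p 0.572) and 0.13 (SE 0.11, adjusted p 0.625), did not pass.

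**Figure D3:**
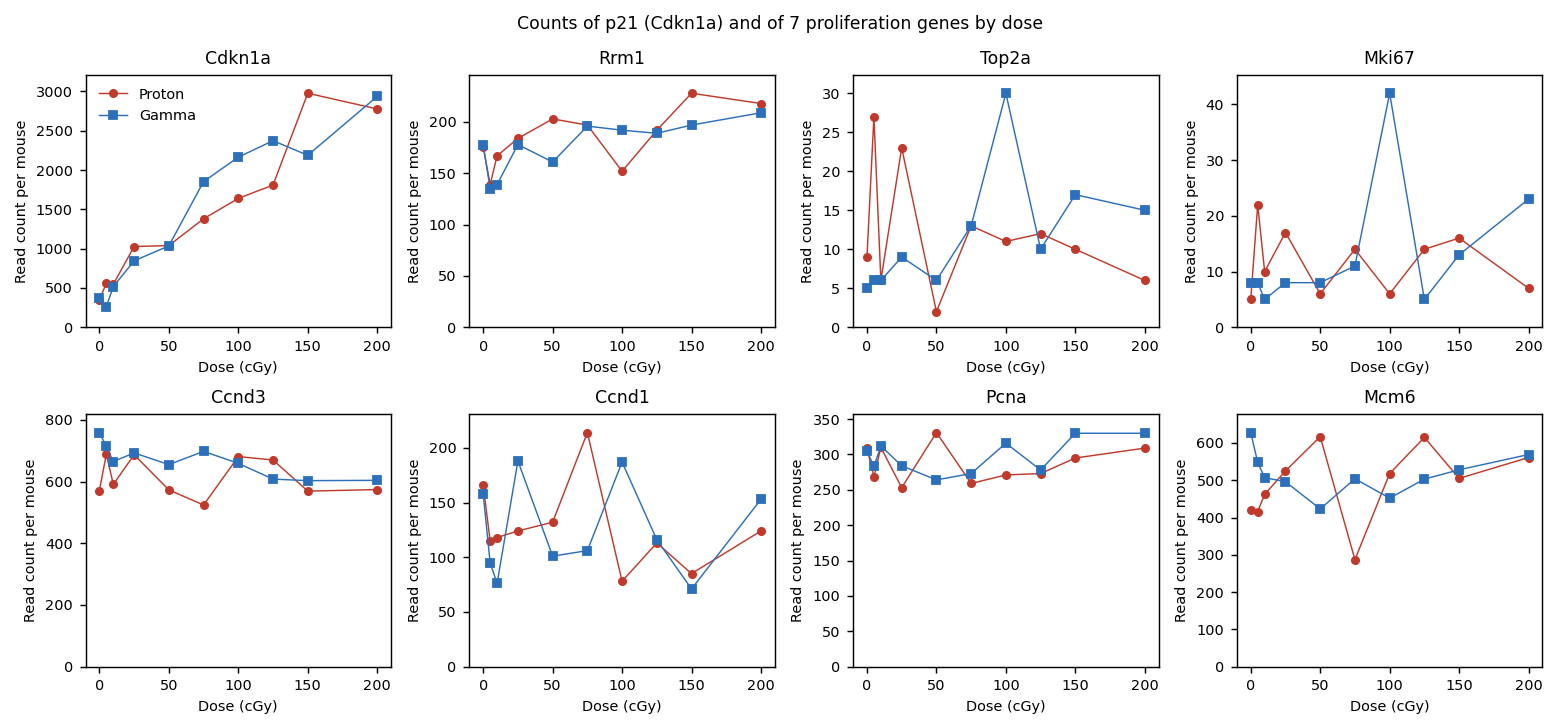
Read counts per mouse against dose in cGy for Cdkn1a and 7 members, with 1 point for each mouse (circles, proton; squares, gamma) and no error bars because each dose has 1 mouse per type. Cdkn1a climbs from 345 and 366 counts in the sham mice to 2777 and 2937 at 200 cGy, while Pcna stays between 253 and 331, and the gamma mouse at 100 cGy stands out for Top2a (30) and Mki67 (42).

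Among the S-phase and mitotic kinases and cyclins, Cdk2 had slopes of -0.06 and 0.12 (SE 0.08 each). Ccne2, cyclin E2, had -0.05 and -0.03, and E2f1, the transcription factor that activates S-phase genes, had -0.18 and -0.15. Cdk1, the kinase of entry into mitosis, had 5, 8, 8, 10, 3, 8, 6, 0, 8 and 2 counts in proton mice and 3, 2, 0, 4, 2, 7, 7, 4, 5 and 8 in gamma mice. Its slopes were -0.62 (SE 0.44, adjusted p 0.623) after proton and 0.91 (SE 0.45, adjusted p 0.297) after gamma irradiation. At no more than 10 counts per mouse, the difference of -1.53 had a 95% interval of -2.85 to -0.20 (unadjusted p 0.0262, adjusted p close to 1 by edgeR). Ccna2, cyclin A2, ranged from 6 through 14 to 32 counts in proton mice, with the highest value at 25 cGy, and from 8 through 12.5 to 21 in gamma mice, and its slopes were -0.36 (SE 0.27) and 0.03 (SE 0.29).

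The genes of the spindle and the mitotic chromosome had mostly positive gamma slopes, none of which passed by edgeR. Top2a had 5, 6, 6, 9, 6, 13, 30, 10, 17 and 15 counts in gamma mice. All 5 mice from 75 cGy upward were above all 5 from 0 to 50 cGy. The slope was 0.86 (SE 0.39, unadjusted p 0.0402, adjusted p 0.241), and without the proton mouse at 75 cGy and the gamma mouse at 100 cGy it was 0.73 (SE 0.34, adjusted p 0.207). The Top2a transcript has 43.4% GC, against a median of 50.4% over the tested genes. In all 21 other settings, the GC and length correction among them, its gamma slope stayed positive and did not pass.

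In proton mice Top2a had 9, 27, 6, 23, 2, 13, 11, 12, 10 and 6 counts, with the highest values at 5 and 25 cGy. The proton slope was -0.51 (SE 0.38, adjusted p 0.651). The difference of the Top2a slopes was -1.36 (95% interval -2.51 to -0.22), with an unadjusted p of 0.0220 and an adjusted p close to 1 by edgeR. Mki67 had 8, 8, 5, 8, 8, 11, 42, 5, 13 and 23 counts in gamma mice, so that the mouse at 100 cGy was far above the rest and the mouse at 125 cGy was among the lowest. Its gamma slope was 0.85 (SE 0.39, adjusted p 0.248), or 0.70 (SE 0.30, adjusted p 0.162) without the same pair of mice. In proton mice Mki67 ranged from 5 through a median of 12 to 22, with a slope of -0.15 (SE 0.39).

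Of the other spindle genes, Kif11, the motor that separates the spindle poles, had slopes of 0.24 and 0.50 with an SE of 0.39 in each type. Nusap1, which bundles spindle microtubules, had 0.06 and 0.55, Tpx2, the activator of Aurora A, had 0.05 and -0.12, and Kif20a, a motor of cytokinesis, had -0.44 and 0.10. The mitotic kinase Plk1, the checkpoint gene Bub1b, the survivin gene Birc5 and the anaphase activator Cdc20 had proton slopes of -0.09 to 0.14 and gamma slopes of -0.18 to 0.29. In all, 0 of 10 tested mitosis genes passed by edgeR or DESeq2 in either type, and 8 of 10 had a gamma slope above 0 and 5 of 10 a proton slope above 0. Over all 13124 tested genes, 7016 gamma and 6635 proton slopes were above 0.

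The counts were also summed over role groups. The 14 replication and DNA synthesis genes summed to 1327 counts in the sham proton mouse and 1519 at 200 cGy, with a lowest value of 1228 at 75 cGy and a highest of 1602 at 50 cGy. In gamma mice the same sum was 1585 without dose and 1543 at 200 cGy, with the lowest value, 1190, at 50 cGy. The 15 mitosis genes summed to 117 counts (exact 95% Poisson interval 96.8 to 140.2) in the sham proton mouse and to 110 (90.4 to 132.6) at 200 cGy. In gamma mice the sums were 106 (86.8 to 128.2) and 151 (127.9 to 177.1). The gamma mouse at 100 cGy had 237 (207.8 to 269.2), and the remaining gamma mice had 98 to 131. The Poisson intervals cover counting error only. Sums at 200 cGy come from single mice whose libraries had the shifted base composition. A lower sum in a whole aorta could come from fewer dividing cells or from less RNA in each, and counts of tissue RNA cannot tell these apart.

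**Figure D4:**
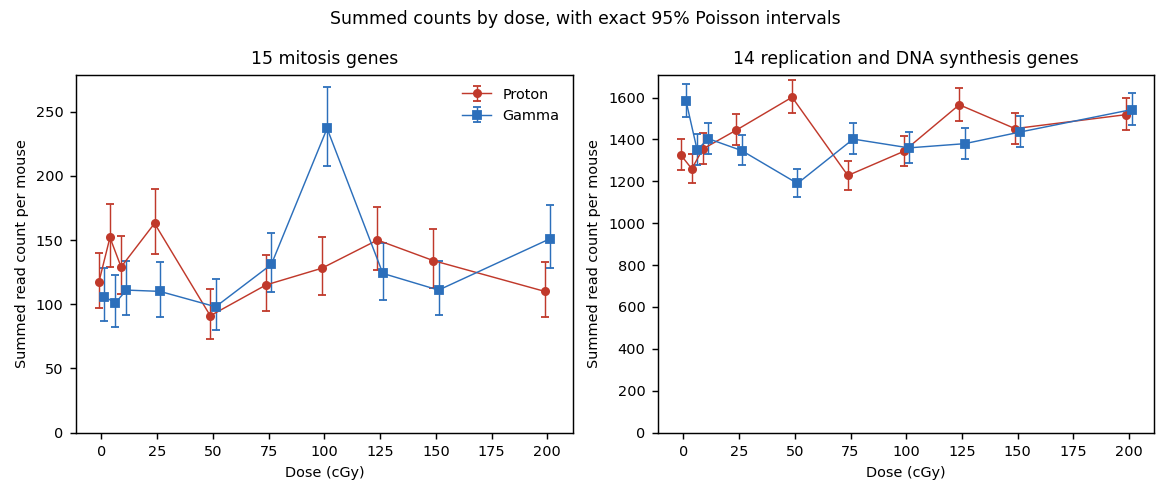
Summed read counts per mouse of the 15 mitosis genes (left) and the 14 replication and DNA synthesis genes (right) against dose in cGy, with exact 95% Poisson intervals that cover counting error only and points of the 2 radiation types drawn slightly apart. The gamma mouse at 100 cGy has 237 mitosis counts, against 98 to 151 in the other gamma mice.

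A trend test on ranks does not assume a straight line. Spearman's correlation between count and dose was computed for every gene over the 10 mice of a type and tested in each direction by exact permutation of the doses. After proton irradiation 0 of 32 members passed in either direction, where 0.198% of all tested genes rose and 0.0% fell, and at an unadjusted p under 0.05 there were 1 upward (Rrm1) and 3 downward (Rrm2, Tk1 and Kif20a), or 3.12% and 9.38% of the members against 7.12% and 5.47% of all tested genes. After gamma irradiation 2 members rose, against 1.9% of all tested genes, and 0 fell, against 0.411%. These were Top2a, with a rank correlation of 0.853 (exact permutation test, adjusted p 0.0912), and Rrm1, with 0.839 (exact permutation test, adjusted p 0.0991). Both calls ended when genes with at least 1 count were included or when doses above 125 cGy were left out, and Rrm1 was no longer called without the gamma mouse at 100 cGy. The rank trend was not run with the GC and length correction. Ccnd3 had the most negative gamma rank correlation of the members, -0.879 (exact permutation test, adjusted p 0.128). Cdkn1a reached 0.976 in each type.

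Protons and gamma rays were also compared directly. Of the 32 members, 0 had a slope that differed between the types at an adjusted p of 0.1, by edgeR or DESeq2, as did 0.0% of all tested genes by edgeR and 0.0% by DESeq2, and 3 (Cdk1, Top2a and Mcm4) passed the unadjusted test, or 9.38% of the members against 1.94% of all tested genes. With mice paired by dose, the level differed between proton and gamma mice for 0 members by either tool, against 0.0% of all tested genes by edgeR and, by DESeq2, 0.13% higher and 0.404% lower. Ccnd3 was the 1 member of 32 with an unadjusted p under 0.05 there, against 7.86% of all tested genes, with a proton to gamma log2 ratio of -0.14 (SE 0.06, adjusted p 0.593).

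Genes of the same processes outside the list were read from longer lists of replication and mitosis genes. Of 33 tested other replication genes 0 passed after proton irradiation, against 1.6% of all tested genes that rose and 0.16% that fell. After gamma irradiation 0 rose, against 5.44% of all tested genes, and 1 fell, against 2.21%. This was the polymerase delta subunit Pold2 (slope -0.29, SE 0.07, edgeR adjusted p 0.0250). Its lowest gamma counts, 119 and 91, were at 150 and 200 cGy, the doses at which base composition shifted. Of 27 tested other mitosis genes, the spindle-associated gene Ckap2 rose in both types. Of all tested genes 1.6% rose after proton and 5.44% after gamma irradiation. Incenp, a subunit of the chromosomal passenger complex, fell after gamma irradiation (slope -0.36, SE 0.12, edgeR adjusted p 0.0986), against 2.21% of all tested genes. Its lowest gamma counts, 28, 32 and 38, were at 125, 150 and 200 cGy. Ckap2 had 2, 6, 12, 11, 8, 16, 13, 18, 25 and 29 counts in proton mice and 4, 8, 4, 14, 9, 11, 23, 17, 13 and 31 in gamma mice. The 3 sham and low-dose values from 0 to 10 cGy in gamma mice lay below the values from 25 cGy upward. The Ckap2 slopes were 1.12 (SE 0.26, edgeR adjusted p 0.0525) and 1.05 (SE 0.26, edgeR adjusted p 0.0308). Its highest proton counts were at 150 and 200 cGy and its highest gamma count at 200 cGy, doses at which base composition shifted. Ckap2 slopes with the GC and length correction are not given here.

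The repressors themselves were measured as RNA. Of 12 genes of the DREAM and RB complexes 0 passed after proton irradiation, against 1.6% of all tested genes that rose and 0.16% that fell. After gamma irradiation 1 rose, against 5.44% of all tested genes. This was Tfdp2, a dimerization partner of E2F factors (slope 0.37, SE 0.11, edgeR adjusted p 0.0665). Its highest counts in both types were at 150 and 200 cGy, the doses at which base composition shifted (316 and 399 in proton mice, 299 and 407 in gamma mice). Rbl2, the p130 pocket protein of DREAM in resting cells, had slopes of 0.17 (adjusted p 0.207) and 0.15 (adjusted p 0.194). Rbl1, the related p107, had -0.05 and 0.18, E2f4, the repressive E2F of the complex, had -0.13 in both types, and Lin9 and Lin54, subunits of its MuvB core, had 0.01 and 0.17 after proton and 0.20 and 0.24 after gamma irradiation. None of these 5 passed by edgeR, and Lin54 passed the rank trend after gamma irradiation (exact permutation test, adjusted p 0.0813).

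Of 6 tested Cdk inhibitors, Cdkn1a was the gene that passed in both types. The p53-induced arrest genes, another list that holds Cdkn1a, passed in 6 of 11 cases after proton and 7 of 11 after gamma irradiation, all upward. Of all tested genes 1.6% and 5.44% rose. The arrest genes that passed included Gtse1, a G2 and S phase gene that p53 is known to induce in mice (slopes 1.41 and 1.71), Ccng1 (0.95 and 0.84), Btg2 (0.91 and 0.48), Sesn2 (0.80 and 0.88) and Mdm2, the ubiquitin ligase of p53 (0.40 and 0.42). Zmat3 passed after gamma irradiation (0.24, adjusted p 0.0794), and the difference of the slopes between types passed for 0 of these 11 genes.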

How the data were processed

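Per the labels and the study's methods, polyA-selected RNA was sequenced, and the authors aligned reads with STAR 2.5.2a to mm9, resampled libraries to a common depth with PORT and deposited sense-strand read counts per gene, which were used unchanged (20 columns, all used). The table is marked MIN, a term that the sources used here do not explain, so how reads that match more than 1 gene entered the counts is not known here. Resampling sets totals nearly equal (6051657 to 6058006). At this depth, a gene with no counts in a mouse could still have an expected count of about 3, for counting error only. The 13124 genes that averaged 5 counts or more were tested.

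Dose slopes were fitted in edgeR 4.0.16 (R 4.3.3) with TMM, robust quasi-likelihood fits and an intercept and slope for each radiation type. The difference of slopes was a contrast of that fit, and levels were compared with dose as a block. The rank trend was Spearman's correlation with dose, tested one-sided by exact permutation over every order of the doses. All p-values were adjusted by Benjamini-Hochberg over all tested genes, threshold 0.1. Each slope p-value rests on the scatter of single mice about a straight line. With 1 mouse per dose and type, this scatter also holds any departure of the dose response from that line. DESeq2 1.42.0, other scalings, filters, dose scales, a GC and length correction, marker covariates and left-out mice were alternatives, and the scripts were tested on simulated data. The simulation gave all genes the same spread beyond counting error. It therefore does not show how often slopes of the low-count members would be found. The members, the lists and the tests were chosen with earlier results of these data known. Members were named with values if they passed a slope test, had the 2 smallest slope p-values of a type in a direction, or stood on a short list of known cycle genes, and Ccnd2 and the members outside that rule are given by slope, range or examples. The neighbouring genes are named where they passed. Counts per kilobase divide by the longest protein-coding transcript of GENCODE M1, which gives the mm9 coordinates. Promoters are from RefSeq (GRCm38.p6) and were matched by symbol.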

Additional observations from a re-analysis of the deposited data

Results flagged for a closer look

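Of 96 sets of 10 mice examined (each member and each role group in each radiation type), 12 had a mouse at an extreme that stood apart by Dixon's test at the 95% level. The nominal chance rate of about 1 in 20 assumes normal values in each set. Many sets here are small counts, and the group sums hold the members examined singly, so the 12 cannot be set against that rate. In gamma mice, 8 of the 12 belonged to the mouse at 100 cGy. It had 42 counts of Mki67, 30 of Top2a, 15 of Nusap1, 13 of Cenpf and 9 of Aurkb, and its summed counts were 237 for the mitosis genes, 79 for the mitotic kinases and checkpoint genes and 158 for the spindle and chromosome genes. The same library had the highest erythroid and brown fat marker sums of the gamma mice, 11410 and 5824, and 2901 counts of macrophage markers. The part of these cells in the mitosis counts was not tested.

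In proton mice, the mouse at 25 cGy had 32 counts of Ccna2 and 6 of Aurkb. The mouse at 75 cGy had 8 counts of Ccne1 and the lowest summed count of all members, 3091, beside its 12458 counts of muscle markers and its smooth muscle sum of 165116, the lowest of all mice.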

How the results depend on the processing

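The count of members called by the gamma slope, 1 by edgeR, was 0 at an adjusted p of 0.05, with library sizes without TMM, with all genes of at least 1 count, with the GC and length correction, at 0 to 125 cGy, with dose as a rank and with log2(dose + 1). It was 2 with DESeq2, without the proton mouse at 75 cGy and without that mouse and the gamma mouse at 100 cGy, and ranged from 0 to 2 when both mice of 1 dose were left out. It was 0 without the pair at 5, 10, 25, 50, 125, 150 or 200 cGy and 2 without the pair at 75 cGy. Rrm1 kept a positive gamma slope under all 22 alternatives but lost the call under 13. Over all tested genes, the GC and length correction left 312 higher and 111 lower after gamma irradiation, against 714 and 290 without it. After proton irradiation it left 96 and 4, against 210 and 21. The proton slope called 1 member, Rrm1 (0.25, adjusted p 0.0664), with the brown fat markers as a covariate, and 0 otherwise. The gamma rank trend called 0 members at an adjusted p of 0.05, with all genes of at least 1 count and at 0 to 125 cGy, and 1 (Top2a) without the gamma mouse at 100 cGy. At 0 to 125 cGy the slope of the mean log2(count + 1) of the members was 0.012 per 100 cGy in proton mice, against -0.07 (SE 0.07) over all doses. The slopes of the summed count at 0 to 125 cGy were -105.7 and -96.3 counts per 100 cGy in proton and gamma mice. Over all doses they were 181.3 (SE 135.6) and 145.0 (SE 95.1), values with large errors. The D-type cyclins made up 55.0% of the counts in this sum. The cause of these moves was not tested. The alternatives that leave out the mice named above or use marker covariates were added after seeing the data. GEO's labels give no replicate numbers shared between groups other than dose. The comparison at matched dose called 0 members with dose as a replicate block and 0 without it, and the slope difference called 0 with it. Depth limits the mitosis genes, 5 of which fell below a mean count of 5, as did the mitotic cyclins Ccnb1 and Ccnb2.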
